A study of Mus musculus with 2 samples.

Results

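Replication-dependent histone genes are those of the Hist1 to Hist4 clusters, whose symbols begin with Hist1h to Hist4h in the count matrix. They were chosen by symbol alone, with at least 50 UMIs (counted mRNA molecules) over all barcodes. This gave 60 members of 67 such symbols, among 32285 genes in all. Just inside the limit were Hist1h2bl with 57 UMIs and Hist1h3h with 59 UMIs, and just outside it was Hist2h3c2 with 26 UMIs. The 2 libraries of 5′ single-cell RNA sequencing came from pancreatic tumors grown from a KPC line, a pancreatic cancer line from mice with Pdx1-Cre, in the pancreas of young male C57BL/6 mice. The control library is from tumors that received no pulses. The iIRE library is from tumors 3 days after insufficient irreversible electroporation, an incomplete ablation by electric pulses. Both groups share the cell line and host strain, and the number of mice per library was not stated. As there is 1 library per group, tumors could not be compared with each other, no test was run and each value describes these libraries. All intervals in brackets are exact at 95% and hold counting error alone.

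These genes supply the core histones H2A, H2B, H3 and H4 and the linker histone H1, which package newly copied DNA. Their mRNAs are made mainly in S phase and usually end in a conserved stem-loop, bound by the protein SLBP, in place of a poly(A) tail. Reverse transcription in this chemistry is primed from poly(A), and some of these genes also give polyadenylated transcripts. Many members are near-identical copies whose reads can be split or dropped in counting, so the level of a single member is uncertain.

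The stem-loops are shown because they define the class. They were read from the transcripts of GENCODE vM21 on mm10. In 40 of 60 members, 6 paired bases stood around a loop of 4, in a form with GG first and some other letters fixed. Other forms were not searched. Capitals mark the stem. The first sequence was found in 23 members of the H1, H2A, H2B and H3 kinds, and the second in 7 H4 members.

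Hist1h1e: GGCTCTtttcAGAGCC
Hist1h4d: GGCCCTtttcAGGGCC

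Annotated transcripts differed in how far they ran past the stem-loop. In 19 members it lay within 60 bases of the end, and these held 14.5% of the members' UMIs in the cells kept. In 21 members the transcript ran further, and these held 60.7%. The 20 members with no such sequence in their transcripts, Hist1h1b, Hist1h1a and Hist1h2bc among them, held 24.8%. The distance was 3 bases for Hist1h2ap, 151 for Hist1h2ae, 840 for Hist1h1c, 1153 for Hist1h1e and 4884 for Hist1h1d. This describes the annotation, and which ends the cells used was not measured.

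Of the members, 49 lie on chromosome 13, 8 on chromosome 3, 2 on chromosome 11 and 1 on chromosome 6. Upstream sequences of RefSeq on GRCm38.p6 were matched to 53 members. In the 250 bases before the start, read on both strands, CCAAT was found in 43 of them and in 33.9% of 32851 promoters. TATAAA was found in 27 of the 53 and in 12.4% of promoters. ATTTGCAT, the octamer known from H2B genes, was found in 5 of 13 H2B and 6 of 14 H2A members and in 1.601% of promoters. Adjacent H2A and H2B members can share these bases, as Hist1h2ae and Hist1h2bg do, so 1 octamer can count for both. AAACACA, the H1 box, was found in 4 of 5 H1 members, in 2 other members and in 6.25% of promoters. None of these motifs contains another. The 120 bases before the start of 3 H1 genes are shown, because Hist1h1b and Hist1h1e were higher and Hist1h1c was lower in dividing tumor-like cells. Capitals mark these motifs on either strand.

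Hist1h1b (chr13:21780626-21780745, minus strand): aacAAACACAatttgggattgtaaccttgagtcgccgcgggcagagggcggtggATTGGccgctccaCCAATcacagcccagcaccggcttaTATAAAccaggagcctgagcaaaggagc
Hist1h1e (chr13:23622559-23622678, minus strand): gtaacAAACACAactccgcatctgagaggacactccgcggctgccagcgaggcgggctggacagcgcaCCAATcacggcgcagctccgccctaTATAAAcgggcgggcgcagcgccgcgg
Hist1h1c (chr13:23738687-23738806, plus strand): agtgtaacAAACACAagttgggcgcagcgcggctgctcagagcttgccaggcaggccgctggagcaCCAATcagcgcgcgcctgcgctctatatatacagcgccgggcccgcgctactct

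Each held the H1 box and CCAAT in the same order. TATAAA stood in Hist1h1b and Hist1h1e and not in the 250 bases of Hist1h1c, where only these exact letters were searched. The H1 genes Hist1h1a and Hist1h1d, not shown, were also higher in dividing cells. Both held CCAAT and TATAAA in their 250 bases, but Hist1h1a held no H1 box. Whether any motif bears on these levels was not tested.

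After filters and removal of doublets, 15274 control and 15991 iIRE cells were kept, with a median of 7888 and 6399 UMIs, and 458 barcode sequences occurred in both libraries. Over all barcodes the libraries held 247105192 and 222153118 UMIs in 18538 and 19433 barcodes. Where a value is given for each library, the control comes first unless the sentence says otherwise. CPM are the UMIs of a gene per 1000000 UMIs summed over the cells of a group. Tumor-like clusters held 5564 and 5521 cells, with Cdkn2a at 1432 and 1535 CPM. Genes of a fibroblast marker list were also at 4767 and 4455 CPM in them. The Y-linked genes, which mark the male host, were at 0.145 and 0.222 CPM in these cells and at 113 and 108 CPM in macrophage-like cells. A further 6934 and 7661 cells lay in clusters with both tumor and host RNA, here called mixed clusters. They had Cdkn2a at 994 and 1040 CPM beside Y-linked genes at 9.54 and 9.33 CPM. The limits that set them apart were chosen after the data were seen.

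The members took 172950 UMIs in the control and 179985 in the iIRE library, which is 870.4 CPM (866 to 874) and 1000 CPM (996 to 1005). The 5 H1 members held 56.3% (56.1 to 56.6) and 53.2% (52.95 to 53.4) of these UMIs. The 15 H2A members held 22.8% and 25.7%, the 13 H4 members 9.87% and 10.2%, the 16 H2B members 8.01% and 7.66%, and the 11 H3 members 3.02% and 3.24%. Over both libraries, 12 members held 85.7% of the UMIs. These were the H1 genes Hist1h1e, Hist1h1b, Hist1h1c, Hist1h1d and Hist1h1a, the H2A genes Hist1h2ae, Hist1h2ap, Hist2h2ac and Hist1h2ab, the H4 genes Hist1h4d and Hist1h4i, and the H2B gene Hist1h2bc. These are shares of UMIs and not levels per length.

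**Figure D1:**
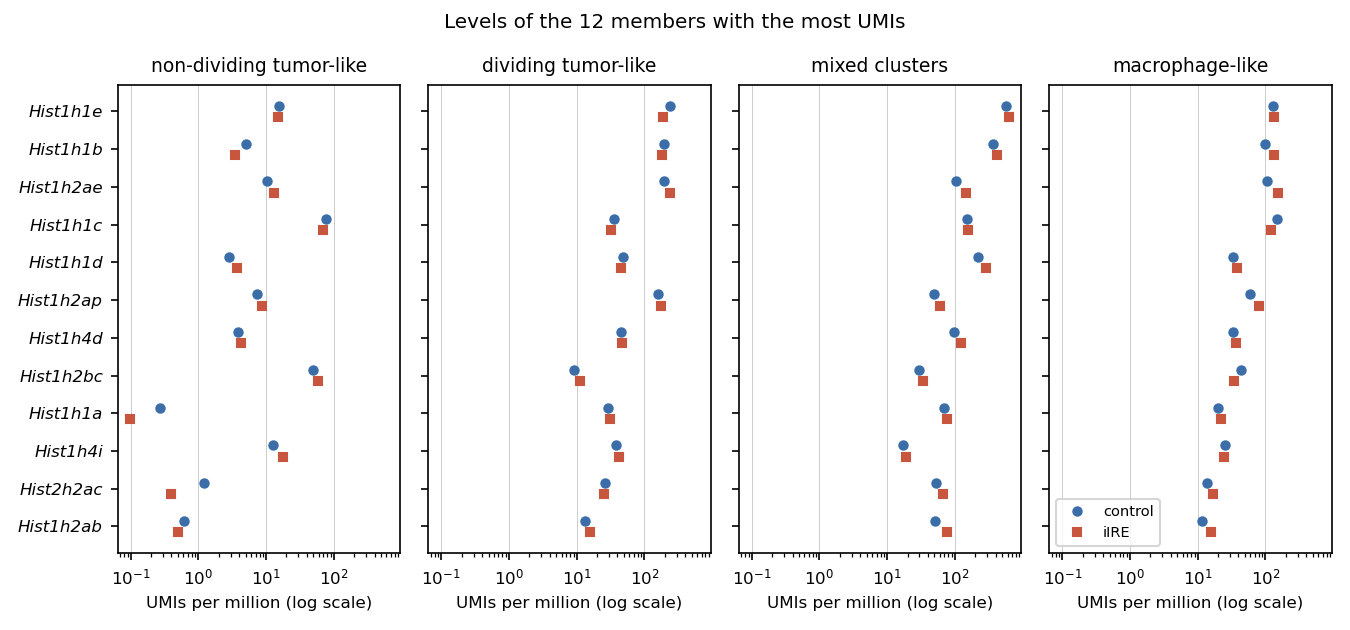
Levels of the 12 members with the most UMIs, in CPM on a log scale, in 4 groups of cells, with circles for the control and squares for the iIRE library. Hist1h1c and Hist1h2bc were higher in non-dividing than in dividing tumor-like cells, and the 10 other members were lower.

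Within tumor-like cells, most members were higher in dividing cells. Cells of at least 2000 UMIs were thinned to 2000 and ranked by their UMIs of 39 S and 50 G2/M genes, none of them a member. The 25% with the most were set against the 25% with the fewest. In the control library the summed members were at 1166 CPM (1156 to 1176) in 1370 dividing and 215 CPM (209.8 to 221) in 1413 non-dividing cells, a 5.41-fold difference. In the iIRE library they were at 1182 CPM (1171 to 1193) and 228 CPM (221 to 234), a 5.19-fold difference. Dividing cells were also deeper, with a median of 30946 against 17744 UMIs in the control and 27714 against 15105 UMIs in the iIRE library. These groups are ends of a range, since 4274 of 10833 cells lay within 1 UMI of the lower edge, which was at 2 UMIs.

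A member entered a comparison if both groups together held 50 of its UMIs, and it was counted as higher or lower if the log2 ratio of CPM + 1 was past 1.5-fold. In the control library 34 of 40 members were higher in dividing cells, beside 14.1% of all genes, and 2 were lower, beside 12.3%. In the iIRE library 33 of 41 were higher, beside 14.4%, and 2 were lower, beside 13%. The median log2 ratio was 1.79 and 1.65 for the members, against 0.01 and 0.01 for all genes. The added CPM understates the ratio of low members, so log2 ratios with an interval are given without it.

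By the ratio of CPM + 1, the H1 genes Hist1h1b and Hist1h1a were the highest in both libraries, and by the ratio without the added CPM Hist2h2bb was above Hist1h1b in both. Hist1h1b, the linker histone H1.5, was at 194 and 5.08 CPM in dividing and non-dividing control cells and at 180 and 3.51 CPM in the iIRE library, with log2 ratios of 5.26 (5.01 to 5.52) and 5.68 (5.34 to 6.04). Hist1h1a, which encodes H1.1, had few UMIs in non-dividing cells, with 1227 and 7 UMIs in the control and 1141 and 2 UMIs in the iIRE library. Hist1h1e, the linker histone H1.4, was at 238 and 15.7 CPM and at 191 and 14.8 CPM. Among H2A genes, Hist1h2ap was at 159 and 7.36 CPM and at 179 and 8.56 CPM, and Hist1h2ae at 192 and 10.5 CPM and at 238 and 13.3 CPM. The H4 gene Hist1h4i differed less, with log2 ratios of 1.62 (1.45 to 1.801) and 1.27 (1.11 to 1.44).

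Every kind of histone had members that were higher in dividing cells. In the control library these were 4 of 5 H1 members counted, 10 of 11 H2A, 7 of 11 H2B, 6 of 6 H3 and 7 of 7 H4 members, and in the iIRE library 4 of 5, 10 of 11, 8 of 12, 5 of 5 and 6 of 8. The H2B gene Hist2h2bb had 304 and 3 UMIs in dividing and non-dividing control cells, and the H2A gene Hist2h2ac, also on chromosome 3, was at 25.9 and 1.201 CPM and at 25.5 and 0.396 CPM. The H3 gene Hist1h3e was at 21.6 and 2.52 CPM and at 22.2 and 2.23 CPM, and the H4 gene Hist1h4d at 45.5 and 3.87 CPM and at 47.3 and 4.304 CPM. Hist3h2ba, an H2B gene on chromosome 11, was at 2.81 and 2.21 CPM in the control, within 1.5-fold, and at 2.69 and 1.24 CPM in the iIRE library, past it.

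Both libraries had the same members lower in dividing cells. Hist1h2bc, an H2B gene, was at 9.21 and 48.7 CPM in dividing and non-dividing control cells and at 11.1 and 58.1 CPM in the iIRE library, with log2 ratios of -2.404 (-2.57 to -2.24) and -2.39 (-2.55 to -2.22). Hist1h1c, the linker histone H1.2, was at 35.6 and 77.6 CPM and at 32.1 and 69.2 CPM, with log2 ratios of -1.12 (-1.22 to -1.02) and -1.11 (-1.22 to -0.99). In non-dividing cells these members took the most UMIs of all members in each library. Hist2h2aa1, Hist1h2bg and Hist2h2be passed 1.5-fold in neither library.

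**Figure D2:**
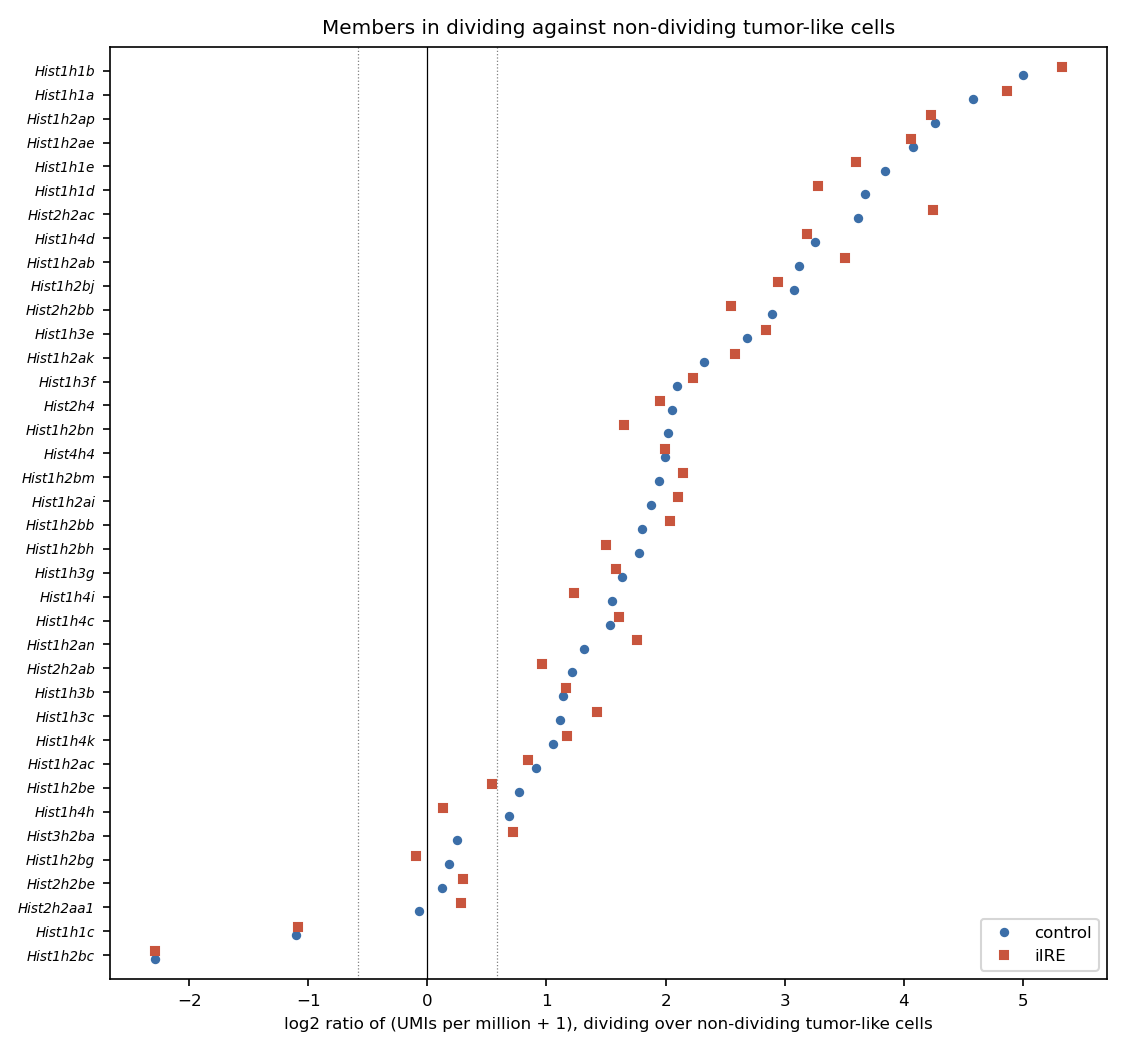
Log2 ratio of CPM + 1 in dividing over non-dividing tumor-like cells for the members counted, with circles for the control and squares for the iIRE library. The solid line marks no difference and dotted lines mark 1.5-fold, and Hist1h1b is highest and Hist1h2bc lowest in both libraries.

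Among dividing cells, those led by S genes had more histone RNA. They were split at the median share of S among S and G2/M UMIs, a split added after the data were seen. The summed members were at 1393 CPM (1377 to 1409) in S-led and 929 CPM (916 to 943) in G2/M-led control cells. The iIRE library had 1459 CPM (1442 to 1477) and 909 CPM (896 to 923). Hist1h1a was at 42.6 and 15.8 CPM in the control and at 41.8 and 20.5 CPM in the iIRE library. Hist1h2bc went the other way, at 6.54 and 11.98 CPM and at 9.602 and 12.6 CPM.

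Genes that act on histones were also counted in dividing over non-dividing tumor-like cells. Of 12 histone mRNA processing genes counted, 7 in each library were higher and none was lower, beside 14.1% and 14.4% of all genes higher and 12.3% and 13% lower. Slbp, which binds the stem-loop, was at 124 and 55.8 CPM in the control and at 129 and 61.4 CPM in the iIRE library. Of 14 chaperones, 11 and 12 were higher and none was lower. Asf1b, a chaperone of H3 and H4, was at 72.1 and 3.14 CPM and at 71.96 and 2.47 CPM. Of 10 variant histone genes counted, which are also made outside S phase, 8 in each library were higher and none was lower. H2afz, the variant H2A.Z, was at 2280 and 566 CPM in the control, while H3f3a, which encodes H3.3, was at 749.6 and 749.5 CPM.

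The members were highest in the mixed clusters. They were at 2102 CPM (2088 to 2116) in the control and 2481 CPM (2466 to 2497) in the iIRE library, against 557 CPM (553 to 562) and 570.5 CPM (566 to 575) in tumor-like cells. Mixed clusters held 20.6% and 22.1% of all UMIs, but 49.8% and 54.8% of the members' UMIs. After thinning to 2000 UMIs, 96.6% (96.2 to 97.02) and 98.3% (97.95 to 98.5) of their cells had a member UMI, and 43.2% (41.9 to 44.5) and 41.8% (40.5 to 43.1) of tumor-like cells. Without thinning the shares were 99.6% and 99.8% at a median of 5638 and 4917 UMIs, and 90.2% and 87.01% at 20960 and 18137 UMIs. In acinar-like cells, which divide little, the thinned share was 43.8% (19.8 to 70.1) of 16 and 15% (3.21 to 37.9) of 20 cells, and the unthinned share 52% and 33.3% at a median of 3299 and 3960 UMIs.

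The difference was also seen at like depth, in a comparison added after the data were seen. Among cells of 1000 to 8000 UMIs, the members were at 2097 CPM (2082 to 2113) in 6127 mixed and 757 CPM (720.4 to 794) in 515 tumor-like control cells, a 2.77-fold difference. They were at 2468 CPM (2452 to 2484) and 527 CPM (499.9 to 555) in the iIRE library, a 4.68-fold difference. In the control library 37 of 46 members were higher, beside 42.4% of all genes, and Hist3h2ba was lower, beside 4%. In the iIRE library 40 of 47 were higher, beside 44%, and none was lower, beside 4.42%. All genes had a median log2 ratio of 0.45 and 0.48 here, against 0.93 and 1.55 for the members. With TMM scaling, which centres the other genes, 21 members were higher and 4 lower in the control, and 36 higher and 2 lower in the iIRE library. The share of all genes was not counted under this scaling, so the shares above are no background for these counts. A further contrast left out cells of both classes with as many S and G2/M UMIs as dividing tumor-like cells. It also left out cells under 2000 UMIs, which were not scored. The members were then at 2013 and 335 CPM in mixed and tumor-like control cells and at 2358 and 271 CPM in the iIRE library.

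The members differed in how far they were higher in mixed clusters. Hist1h1d, the linker histone H1.3, was at 227 and 23.5 CPM in mixed and tumor-like control cells of this depth and at 297 and 19.7 CPM in the iIRE library. Hist1h2ak, an H2A gene, was at 32.2 and 4.61 CPM and at 41.6 and 1.11 CPM. Hist4h4, an H4 gene, was at 31.5 and 4.61 CPM and at 37.5 and 1.49 CPM. These had the 3 highest ratios of CPM + 1 in both libraries, and without the added CPM Hist1h2af, with 2 and 1 UMIs in tumor-like cells, was above Hist1h1d and Hist4h4 in both. Hist1h1c, which was lower in dividing cells, was higher here, with log2 ratios of 1.17 (0.93 to 1.41) and 1.51 (1.28 to 1.76). Hist1h2ap, which was higher in dividing cells, had log2 ratios of 0.17 (-0.13 to 0.495) and 0.57 (0.29 to 0.87). Hist1h2bc was at 29.96 and 35.04 CPM and at 33.2 and 46.8 CPM, a lower value than in tumor-like cells in both libraries. Tumor-like cells held 76 and 126 of its UMIs, so the smaller control difference is uncertain. H1 members held 65.2% (64.9 to 65.5) and 62.9% (62.6 to 63.2) of the members' UMIs in mixed clusters, and 46.7% (46.3 to 47.03) and 39.98% (39.6 to 40.4) in tumor-like cells.

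Other RNA moved with the members there. The nuclear RNA Malat1 was at 6686 and 6311 CPM in mixed clusters and 3384 and 2948 CPM in tumor-like cells. AY036118 was at 5078 and 5352 CPM against 481 and 478 CPM, and ribosomal protein genes took 13.99% and 14% of UMIs against 20.1% and 20.02%. The 12 macrophage markers, all detected in both classes, were at 1007 and 1058 CPM in sum, against 26.6 and 23.2 CPM. The other marker lists were also higher, with acinar markers at 446 and 398 CPM against 20.6 and 44.5 CPM. Only the tumor list was lower, at 3899 and 3975 CPM against 5146 and 5668 CPM. The S list was at 1598 and 1061 CPM in mixed and tumor-like control cells of like depth and at 1649 and 809 CPM in the iIRE library. The part of any of these in the members' level was not tested.

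**Figure D3:**
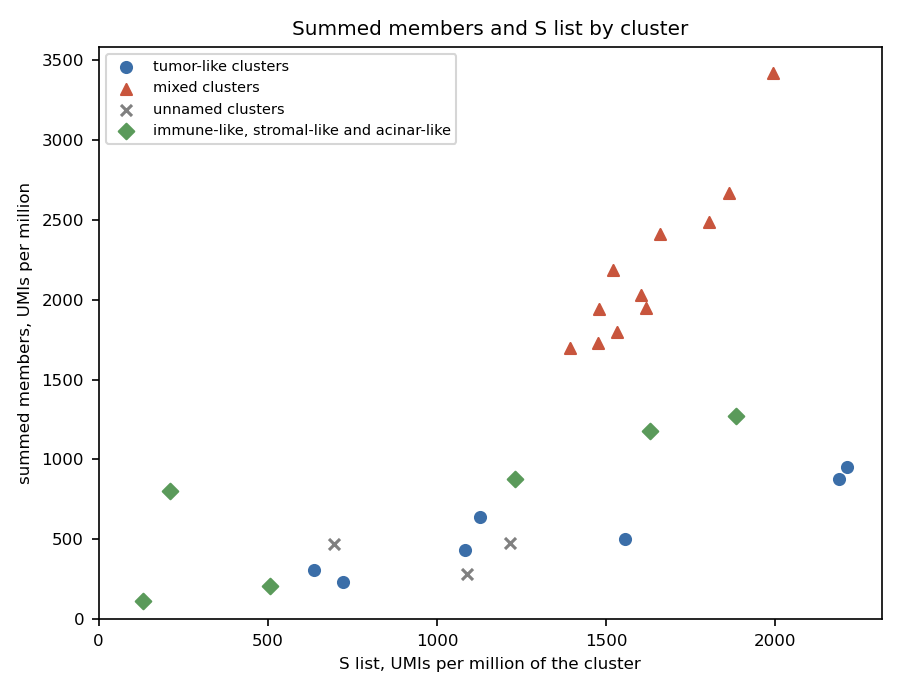
Summed members against the summed S list, both in CPM over both libraries, in each of 27 clusters of at least 50 cells. Mixed clusters lie between 1700 and 3418 CPM of the members at 1394 to 1993 CPM of the S list, and tumor-like clusters between 231 and 956 CPM of the members.

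Over these 27 clusters, the genes most like the summed members in log2 level were Tmpo, with a Pearson r of 0.89, and Ccnb1ip1, Brd7, Pphln1, Kif15, Rbl1, Cdca2, Neil3, Gm42743 and Cep128, with r from 0.85 to 0.88. Tmpo and Cdca2 are in the G2/M list. Tmpo, which encodes lamina-associated proteins, was at 104 to 149 CPM in mixed and 30.9 to 115 CPM in tumor-like clusters. The S list had an r of 0.70 and the G2/M list of 0.78. Clusters share libraries, depth and cells of like kind, so these values are a description. Of the members, Hist1h1e had an r of 0.98 and Hist1h2bc of 0.04 with the sum that holds them.

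Over all cells, shallow cells had a higher CPM of the members than deep cells. Cells of 1000 to 8000 UMIs had 1830 CPM (1816 to 1843) and 2108 CPM (2095 to 2122), and cells of at least 10000 UMIs had 591 CPM (587 to 595) and 615 CPM (611 to 619). In the control 43 of 53 members were higher in shallow cells, beside 18.4% of all genes, and in the iIRE library 43 of 54, beside 22.5%. None was lower, beside 0.742% and 1.23%. Mixed clusters made up 6127 of 7727 shallow control cells and 7286 of 9076 shallow iIRE cells. Within mixed clusters the shallow to deep ratio was 0.978 and 0.942.

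Within tumor-like cells the contrast depended on where the depths were divided. With 1000 to 4000 against at least 16000 UMIs the members were higher in shallow cells of both libraries, with log2 ratios of 1.05 and 0.57. The lowest level was at 8000 to 16000 UMIs in both, 294 and 301 CPM, against 1411 and 1261 CPM at 1000 to 2000 UMIs. With the same limits as in the other classes the libraries differed in direction, but not with TMM scaling, which gave log2 ratios of 0.58 and 0.06. In the control the members were at 757 CPM (720.4 to 794) in shallow and 556 CPM (552 to 560.3) in deep cells, a ratio of 1.36. In the iIRE library they were at 527 CPM (499.9 to 555) and 576 CPM (572 to 581), a ratio of 0.914. In the control 19 of 44 members were higher in shallow cells, beside 4.29% of all genes, and Hist1h2ap and Hist1h3c were lower, beside 13.9%. In the iIRE library 9 of 45 were higher, beside 4.98%, and 7 were lower, beside 14.1%. Some of these calls rest on few UMIs in shallow cells and are uncertain. Of those lower, Hist1h3c had 0 in the control. In the iIRE library Hist2h2ab and Hist1h2bk had 0, Hist1h3g had 1, and Hist1h2ai and Hist1h2ak had 3. Of those higher, Hist1h3i had 3 in the control and Hist1h4a had 4 in the iIRE library. The H4 gene Hist1h4d was higher in both libraries, at 56.7 and 18.6 CPM in shallow and deep control cells and 36.8 and 20.2 CPM in the iIRE library. Hist1h2ap was lower in both, at 41.96 and 63.9 CPM and 38.6 and 74.2 CPM. One cluster of 533 cells, at a median of 3684 UMIs, held 35.5% and 40.5% of the shallow tumor-like cells, and without it the ratio was 1.07 and 0.682. Among tumor-like cells of at least 2000 UMIs with at most 2 S and G2/M UMIs after thinning, the ratio was 1.09 and 1.02.

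In macrophage-like cells, shallow cells held less of the members' RNA. They had 530.5 CPM (499.5 to 563) and deep cells 1198 CPM (1148 to 1250) in the control, and 525 CPM (496 to 556) and 1793 CPM (1709 to 1880) in the iIRE library. In each library 9 of 12 members were lower, beside 11.8% and 12.9% of all genes, and none was higher, beside 7.68% and 10%. Hist1h2ae was at 30.1 and 203 CPM and at 55.8 and 375 CPM. Hist1h1c was at 147 and 122 CPM and Hist1h2bc at 50.6 and 40.6 CPM in the control, and both passed 1.5-fold in neither library. The S list was at 666 and 1693 CPM and the G2/M list at 1243 and 4019 CPM in shallow and deep control cells. Their part in this contrast was not tested.

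**Figure D4:**
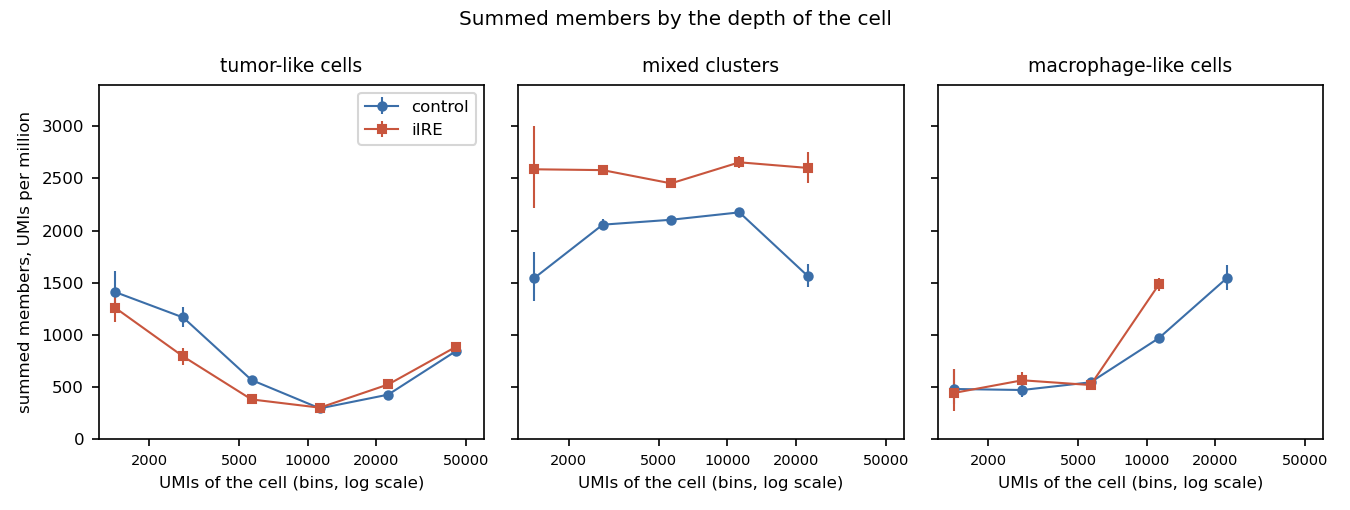
Summed members in CPM by the UMIs of the cell, in bins of at least 20 cells, with 95% intervals of counting error as bars. Mixed clusters lie between 1545 and 2654 CPM in all bins, and tumor-like cells are lowest at 8000 to 16000 UMIs.

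Over all depths, macrophage-like cells held more of the members' RNA than tumor-like cells. They had 835 CPM (809 to 861) in 670 and 934 CPM (904 to 965) in 635 cells, 1.498-fold and 1.64-fold the level of tumor-like cells. In the control 15 of 46 members were higher, beside 20.3% of all genes, and in the iIRE library 24 of 48, beside 21.7%. None was lower, beside 40.4% and 39.3%. The median log2 ratio of all genes was -0.36 and -0.32, against 0.43 and 0.54 for the members. The highest ratios of CPM + 1 were those of Hist3h2a, Hist3h2ba and Hist1h1c in both libraries, and without the added CPM other members with few UMIs were above Hist1h1c. Hist3h2a and Hist3h2ba, an H2A and an H2B gene on chromosome 11, were at 4.99 and 0.331 CPM and at 11.2 and 2.21 CPM in macrophage-like and tumor-like control cells. Hist1h1c was at 150.4 and 54.6 CPM in the control and 121 and 48.1 CPM in the iIRE library. The S list was at 1135 and 1349 CPM in macrophage-like and 1429 and 1452 CPM in tumor-like cells.

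The unnamed clusters, 1563 control and 1636 iIRE cells, were not counted as tumor-like, and had 398 CPM (390 to 406) and 504 CPM (494 to 513) of the members. The largest of them had 976 CPM of Cdkn2a and under 3 CPM of Y-linked RNA, as tumor-like clusters do, but its 10 leading genes held more markers of another list than of tumor cells. The smaller classes ranged widely. Osteoclast-like cells had 1201 CPM (1157 to 1247) and 1163 CPM (1126 to 1201), and T/NK-like cells 1251 CPM (1132 to 1378) and 1346 CPM (1113 to 1613). The intervals of these classes overlap in both libraries. Dendritic-like cells had 631 CPM (566 to 702) in 66 and 391 CPM (274 to 541) in 11 cells, and endothelial-like cells 694 CPM (601 to 797) in 21 and 264 CPM (191 to 355) in 16 cells. Fibroblast-like cells had 178 CPM (152 to 206) and 231 CPM (204 to 261), and acinar-like cells 159.6 CPM (100 to 242) and 68.3 CPM (31.2 to 129.6). Neutrophils no longer divide, and neutrophil-like cells had 834 CPM (715 to 968) and 765 CPM (654 to 889.9) of the members. Beside these, the S list was at 134 and 285 CPM and the G2/M list at 1063 and 2170 CPM. Cdkn2a was at 33.4 and 31.7 CPM, against 21.01 and 26.1 CPM in macrophage-like cells. Whether RNA of other cells had a part in the members' level was not tested. Neutrophil-like cells were shallow, with a median of 1323 and 1320 UMIs. Hist1h1c gave 88 of 175 member UMIs in them in the control and 62 of 169 in the iIRE library.

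Between the libraries, the summed members of tumor-like cells were within 1.5-fold. The members were at 570.5 CPM (566 to 575) in the iIRE and 557 CPM (553 to 562) in the control library, a ratio of 1.02. Of 54 members none was past 1.5-fold, beside 0.423% of all genes higher and 0.12% lower, and the log2 ratios of CPM + 1 ran from -0.36 to 0.37. The highest of these ratios were those of Hist1h2ag, Hist1h4m and Hist1h2bk, and the lowest those of Hist2h2bb, Hist1h1e and Hist1h1c. The ratio of the summed members was 1.01 in dividing and 1.06 in non-dividing cells. In dividing cells 1 of 47 members, Hist1h2bk, was higher, at 1.82 and 0.793 CPM, beside 0.663% of all genes, and none was lower, beside 0.251%. In non-dividing cells 1 of 16, Hist1h4h, was higher, at 6.18 and 3.68 CPM, beside 1.14%, and none was lower, beside 0.534%. Hist1h1e was at 80.7 and 99.6 CPM in the iIRE and control library, and Hist1h2ae went the other way, at 96.9 and 76.98 CPM. Differences of this size cannot be told apart from the spread between tumors.

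In macrophage-like cells the ratio of iIRE to control was 1.12. Of 16 members, the H3 gene Hist1h3e alone was higher, beside 2.4% of all genes, with 61 and 44 UMIs, and none was lower, beside 1.91%. In mixed clusters the ratio was 1.18. Of 53 members, Hist1h3c, Hist1h4c, Hist2h2aa1, Hist1h2ai and Hist1h2ab were higher, beside 1.36% of all genes, and none was lower, beside 1.06%. With 10 CPM added in place of 1, none of these members of either class was past 1.5-fold, and with TMM scaling 3 of 53 were in mixed clusters. The share of all genes was not counted under these settings. In the iIRE and control library, Hist1h2ab was at 76.4 and 50.1 CPM and Hist1h3c at 5.86 and 3.24 CPM. The libraries differed in which mixed clusters they filled, since the largest held 5779 iIRE and 3292 control cells. Within this cluster the members were at 2567 and 2162 CPM in the iIRE and control library, and within the next largest at 2704 and 2434 CPM. A cluster of 71 iIRE and 804 control cells went the other way, at 1771 and 1958 CPM. The part of the cluster sizes in the ratio was not tested.

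**Figure D5:**
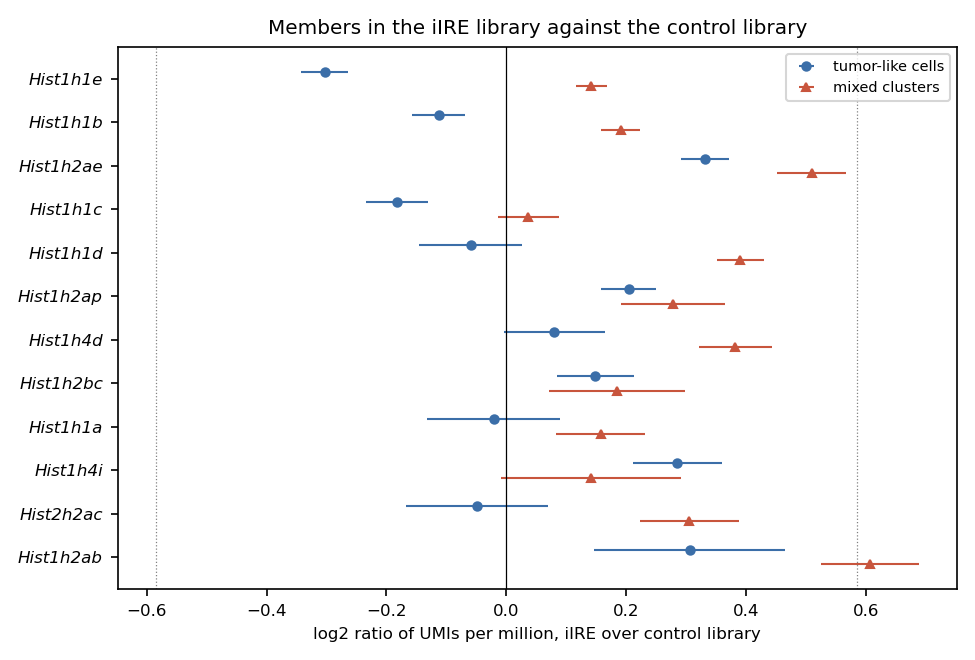
Log2 ratio of CPM in the iIRE over the control library for the 12 members with the most UMIs, in tumor-like cells (circles) and mixed clusters (triangles), with 95% intervals of counting error as bars. The solid line marks no difference and dotted lines 1.5-fold, and all 12 members of tumor-like cells lie inside them.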

How the data were processed

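The authors deposited UMI counts as 1 matrix of whole numbers without normalization, made with Cell Ranger, STAR and mm10. The file header names Cell Ranger 7.0.1, and the study's methods name another version. Barcodes ending in -1 were taken as the control and in -2 as the iIRE library, by the library numbers in the labels.

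Cells with at least 200 genes and 1000 UMIs and at most 5% mitochondrial UMIs were kept, besides limits on complexity and hemoglobin. Doublets were scored against simulated sums and removed (2538 control and 2836 iIRE cells). Cells were clustered without the members (leidenalg 0.10.2, resolution 1.0, 30 principal components, 2000 variable genes, 20 neighbors) and named from markers. Tumor-like clusters had at least 200 CPM of Cdkn2a and under 3 CPM of Y-linked genes, with at least 3 tumor markers and no more markers of another list among the top genes, and mixed clusters had more Y-linked RNA. Counts were summed per group and library. No test was run, since each group is 1 library and cells are not replicates. The members and lists were chosen with earlier results of these data known. Named genes were the 12 members with the most UMIs, the 3 highest and 3 lowest members of each comparison, the listed genes of highest CPM and the 10 genes most like the members. Other genes, such as Slbp and Asf1b, were chosen after their values were seen. Steps were tested on simulated data. TMM factors came from edgeR 4.0.16, and Python 3.11.15 was used.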

Additional observations from a re-analysis of the deposited data

Results flagged for a closer look

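The summed members were higher in shallow than in deep tumor-like cells of the control library, with a log2 ratio of 0.44, and lower in the iIRE library, with -0.13. With 1000 to 4000 against at least 16000 UMIs both libraries were higher in shallow cells, with 1.05 and 0.57, as they were with TMM scaling, with 0.58 and 0.06. In macrophage-like control cells the same ratio was -1.18, opposite to the 0.44 of tumor-like control cells. Hist1h1e was lower in iIRE than in control tumor-like cells, with a log2 ratio of -0.30, and higher in iIRE than in control mixed clusters, with 0.14. Hist1h1b had -0.11 in tumor-like cells and 0.19 in mixed clusters in this contrast. Each was singled out because the direction differed between libraries or classes, and none of these differences was tested, since there is 1 library per group.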

How the results depend on the processing

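Values are log2 ratios of the summed members, control before iIRE. The higher level in dividing tumor-like cells, in macrophage-like cells of all depths together and in mixed clusters kept its direction under every alternative run. The shallow to deep ratio of tumor-like cells did not. That ratio was 0.44 and -0.13 as reported, and 0.58 and 0.06 with TMM scaling, 1.05 and 0.57 with 1000 to 4000 against at least 16000 UMIs, 0.34 and -0.29 at clustering resolution 2.0 and, in the iIRE library with no doublets removed, -0.25. With cells chosen after the data were seen, it was 1.63 and 1.78 over all cells, 0.12 and 0.03 at no more than 2 S and G2/M UMIs and 0.09 and -0.55 without the shallow cluster. Dividing over non-dividing cells, 2.44 and 2.38 as reported, gave 2.57 and 2.51 at resolution 2.0, 2.38 and 2.30 with the members in the clustering, 2.57 and 2.46 for the highest and lowest 10% of cells, 2.16 and 2.03 by the S list and 2.49 and 2.47 by the G2/M list. Macrophage-like over tumor-like cells, 0.58 and 0.71, gave 0.31 and 0.45 with doublets kept, 0.54 and 0.64 at resolution 2.0, 0.64 and 0.79 with the members in the clustering and 0.87 and 0.93 with TMM. Mixed over tumor-like cells, 1.47 and 2.23, gave 1.65 and 2.37 with the members in the clustering and 1.03 and 1.74 with TMM. It was 2.59 and 3.12 without cells of many S and G2/M UMIs and cells under 2000 UMIs. The iIRE over control ratio of tumor-like cells, 0.03, was 0.06 with doublets kept, 0.07 at a limit of 10% mitochondrial UMIs and 0.06 at resolution 2.0. With doublets kept, T/NK-like, neutrophil-like and osteoclast-like clusters were no longer separate.

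Counts past 1.5-fold in either direction fell when 10 CPM were added, to 15 and 17 for dividing cells, 2 and 9 for macrophage-like cells, 15 and 21 for mixed clusters, 19 and 22 for all shallow cells, 3 and 2 for shallow tumor-like cells, and 0 and 0 for iIRE over control in macrophage-like cells and mixed clusters. With a limit of 1 UMI, iIRE over control in macrophage-like cells had 14 and shallow over deep macrophage-like cells 34 and 42. TMM gave 2 and 3 for iIRE over control in these classes, 33 for macrophage-like control cells and 25 for mixed control clusters. The share of all genes past 1.5-fold was not counted under these settings, so these counts have no background beside them. Adding 10 CPM draws the ratio of any gene toward no difference. The cause of these shifts was not tested.

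No paired analysis was possible because each group is 1 library. Leaving out a replicate was likewise not possible. Depth limits the small classes and the members with few UMIs, whose intervals are wide. Library and treatment cannot be told apart, and counts of near-identical members are uncertain.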
